A study of Homo sapiens with 6 samples.

Results

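The transcripts described here encode 3 ERBB receptors (EGFR, ERBB2 and ERBB3), 4 ligands of the family (AREG, EREG, HBEGF and TGFA), the receptor MET and the feedback inhibitor ERRFI1, 9 genes of 56638 listed gene symbols. They were chosen by symbol, with earlier results of these data known, and all 9 were among the 14685 genes with enough reads to be tested. RNA sequencing gave their levels in cells labelled HT29, an established human colorectal cancer line grown in serum-containing medium, in 3 libraries after a nonspecific control siRNA (labelled wild type; control) and 3 libraries after siRNA against RNF6 (labelled RNF6 knockdown). RNF6 belongs to the RING class of E3 ubiquitin ligases, and the series places its depletion in the question of JAK/STAT3 signalling. The labels do not say whether the numbers in the sample titles mark separate cultures or different siRNAs. The p-values therefore take in only how far these libraries differ, and that spread can be technical.

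ERBB receptors are membrane tyrosine kinases that pair with each other when a ligand binds. EGFR binds AREG, EREG, HBEGF and TGFA, ERBB2 has no known ligand of its own and serves as a partner, and ERBB3 binds neuregulins and has little kinase activity. The ligands are made as membrane precursors and released by proteases, MET is the receptor of hepatocyte growth factor, and in intestinal epithelium both systems drive growth and repair through the RAS-ERK and PI3K pathways.

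Gene counts summed to between 6808771 and 11071456 reads per library. The target RNF6 was at 45.2 to 57.8 CPM (normalised read counts, scaled to library size) in the control libraries and at 16.2 to 16.9 CPM in the RNF6 siRNA libraries. Of 13 markers of colon epithelium, EPCAM, KRT8, KRT18, KRT19, CDH1 and CDX2 were present, whereas CDX1 had 0 reads and VIL1, LGALS4, CEACAM5, CDH17 and GPA33 averaged below 1 CPM in each group. KRT20 was at 1.99 CPM with control siRNA and 0.633 CPM with RNF6 siRNA. The identity of the line was not tested. The summed level of these markers was 4352 to 5653 CPM with control siRNA and 2446 to 2830 CPM with RNF6 siRNA, and its part in the results below was not tested. The keratin genes carried this difference: KRT8 averaged 3064 and 1256 CPM, KRT19 1321 and 872 CPM, and KRT18 352.0 and 114.8 CPM with control and RNF6 siRNA. EPCAM averaged 218.0 and 226.7 CPM, CDH1 105.9 and 113.6 CPM, and CDX2 15.9 and 16.1 CPM, and none of these 3 passed the test. Averaged over the libraries, markers of fibroblasts, endothelium and leukocytes were mostly below 1 CPM, in 6 of 8, 5 of 6 and 7 of 7 genes. Their summed levels were 50.1 to 65.4 CPM with control siRNA and 70.1 to 84.9 CPM with RNF6 siRNA for fibroblast genes, almost all of it from COL1A1, and at most 3.92 CPM in any library for leukocyte and 3.09 CPM for endothelial genes, of which VWF was the most abundant. Among leukocyte genes CD14 had the highest mean in control libraries, 1.23 CPM. Neuronal and neuroendocrine genes summed to 86.4 to 134 CPM with control siRNA and 204 to 225 CPM with RNF6 siRNA. Almost all of it came from ENO2, which is also a glycolytic enzyme. Of these 5 genes, only 1 averaged below 1 CPM over the libraries.

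Of the 9 transcripts, EGFR fell and TGFA rose after RNF6 siRNA, and the other 7 did not pass the test. EGFR was 2.09-fold lower and TGFA 1.78-fold higher, so the receptor and a ligand of it moved in opposite directions. In bulk libraries, fewer cells with a transcript and less of it per cell cannot be told apart. Across all tested genes, 32.7% were called in either direction, 16.1% lower and 16.6% higher, and 2 of 9 is no larger a share than that. The median log2 fold change of the 9 was -0.12, beside 0.01 over all tested genes. The median absolute log2 fold change was 0.29, beside 0.28 over all tested genes. The groups' libraries did not overlap for the same 2 of 9, whereas they did not overlap for 44.2% of tested genes.

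**Figure D1:**
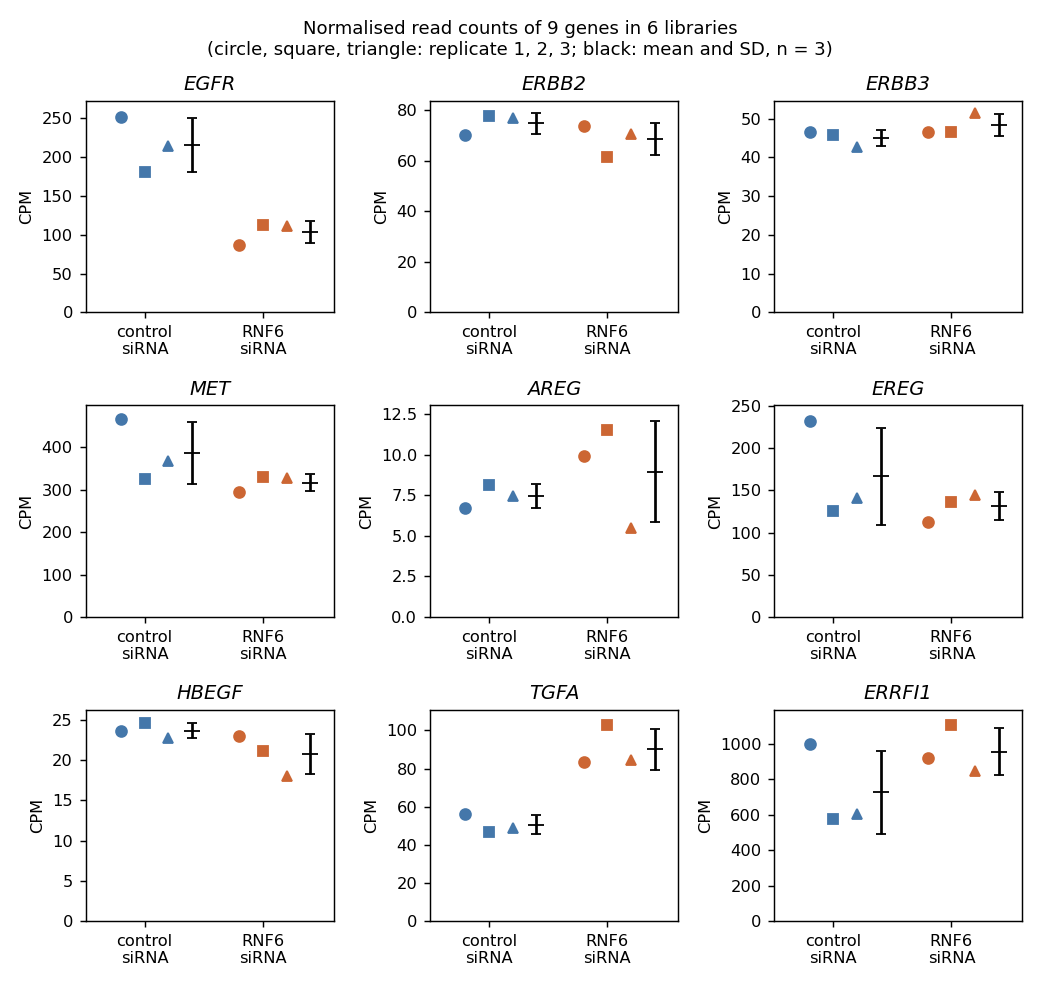
Normalised read counts (CPM, linear axes from 0) of the 9 transcripts in each of 6 libraries, by replicate, with the mean and SD of 3 libraries in black. All RNF6 siRNA libraries sit below all control libraries for EGFR and above them for TGFA, and control replicate 1 is the highest control library for EGFR, ERBB3, EREG, TGFA, MET and ERRFI1.

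EGFR, the receptor that all 4 ligands bind, is shown first with the stretch before its start, because it had the largest difference of the 9. MET, the other abundant receptor of the set, lies on the same chromosome and is given beside it, and ERRFI1, the most abundant transcript of the set, is the third. Each line holds the 250 bases before the first start in RefSeq (GRCh38.p14, another build than that of the counts), with matches to GGGCGG on either strand, the core of the GC box that SP1 binds, in capitals. The windows are chr7:55018767-55019016 on the plus strand for EGFR, chr7:116671946-116672195 on the plus strand for MET and chr1:8026310-8026559 on the minus strand for ERRFI1, and none of them overlaps an exon annotated in GENCODE 29.
EGFR: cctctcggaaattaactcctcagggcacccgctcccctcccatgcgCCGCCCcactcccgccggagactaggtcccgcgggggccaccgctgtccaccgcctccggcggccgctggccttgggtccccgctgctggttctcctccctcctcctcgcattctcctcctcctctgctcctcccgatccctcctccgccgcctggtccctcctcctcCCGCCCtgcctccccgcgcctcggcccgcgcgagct
MET: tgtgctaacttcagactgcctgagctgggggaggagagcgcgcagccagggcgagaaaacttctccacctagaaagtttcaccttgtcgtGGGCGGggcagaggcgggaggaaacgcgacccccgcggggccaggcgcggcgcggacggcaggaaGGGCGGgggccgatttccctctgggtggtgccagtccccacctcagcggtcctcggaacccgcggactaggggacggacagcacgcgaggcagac
ERRFI1: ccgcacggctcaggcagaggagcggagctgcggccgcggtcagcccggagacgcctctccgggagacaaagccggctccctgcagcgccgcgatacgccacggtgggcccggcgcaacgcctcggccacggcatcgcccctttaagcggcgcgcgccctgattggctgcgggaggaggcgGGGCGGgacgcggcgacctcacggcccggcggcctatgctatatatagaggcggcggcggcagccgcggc

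The EGFR window had 73.6% G or C bases and 2 GC boxes, the MET window 68.4% and 2, and the ERRFI1 window 75.2% and 1. Across all 35116 promoter entries of the same length, the median was 58.0%, and 42.6% held at least 1 GC box. RefSeq promoter entries were found for 8 of the 9 genes, 10 entries in all, and not for ERBB3. Of the entries not shown, HBEGF held 5 GC boxes, the first TGFA entry 3 and AREG 1. EREG, ERBB2 and the second entries of EGFR and TGFA held 0. The G or C share of the entries not shown ran from 38.8% (second EGFR entry) to 76.4% (HBEGF). None of the 10 held TTCNNNGAA, the letters of a STAT site, which 6.57% of all entries hold. TGANTCA, the letters of an AP-1 site (both strands searched, as for the others), was found 2 times in the second EGFR entry. That entry belongs to a start inside the gene. The ERBB2 entry, whose 250 bases all lie in annotated exons of ERBB2 or PGAP3, held TGANTCA 1 time, and 6.57% of all entries hold it. TATAAA was found in the EREG and AREG entries, 32 and 29 bases before the start, and 2 times in the second EGFR entry, and 10.7% of all entries hold it. These matches describe letters only, and factor binding was not measured.

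Among the receptors, EGFR was at 251.5, 181.4 and 214.8 CPM in control replicates 1, 2 and 3 and at 87.1, 112.3 and 110.9 CPM in RNF6 siRNA replicates 1, 2 and 3. Every RNF6 siRNA library was below every control library. The group means of EGFR were 215.9 ± 35.0 and 103.4 ± 14.2 CPM (SD, n = 3), with a log2 fold change of -1.06 (SE 0.135, 95% interval -1.35 to -0.77, edgeR adjusted p = 8.94e-05). The call held under all 13 alternatives run, with log2 fold changes between -1.18 and -0.95. EGFR lies on chromosome 7, and 1.49% of its exon bases are shared with the antisense gene EGFR-AS1, which had at most 4 reads in any library.

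ERBB2, the partner receptor on chromosome 17, was at 70.2, 77.6 and 76.8 CPM in the control libraries and 73.6, 61.5 and 70.7 CPM in the RNF6 siRNA libraries. The groups overlapped, and the log2 fold change of -0.12 (SE 0.107, edgeR adjusted p = 0.411) had a 95% interval from -0.35 to 0.11. Exons of PGAP3 and MIEN1 overlap 7.41% of its exon bases. ERBB3, the receptor for neuregulins on chromosome 12, was at 46.6, 45.9 and 42.8 CPM in the control libraries and 46.6, 46.6 and 51.6 CPM in the RNF6 siRNA libraries. The groups overlapped here too, with a log2 fold change of 0.10 (SE 0.105, 95% interval -0.13 to 0.33, edgeR adjusted p = 0.497). For both receptors the interval leaves out a fall as large as that of EGFR.

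MET, on chromosome 7, was at 467.1, 325.9 and 367.2 CPM in the control libraries and 294.3, 329.6 and 327.4 CPM in the RNF6 siRNA libraries. Control replicate 1 stood above the rest, control replicate 2 lay within the range of the RNF6 siRNA libraries, and the RNF6 siRNA libraries lay close together. The difference did not pass the test (log2 fold change -0.29, SE 0.125, 95% interval -0.56 to -0.02, edgeR unadjusted p = 0.0389, adjusted p = 0.0949). It passed without control replicate 2 (-0.40, adjusted p = 0.00990) and was -0.14 without control replicate 1 (adjusted p = 0.309).

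Among the ligands, TGFA, a high-affinity EGFR ligand of epithelial cells encoded on chromosome 2, was at 56.3, 46.7 and 48.9 CPM in the control libraries and 83.3, 102.6 and 84.4 CPM in the RNF6 siRNA libraries. Every RNF6 siRNA library was above every control library. The group means of TGFA were 50.6 ± 5.03 and 90.1 ± 10.8 CPM (SD, n = 3), with a log2 fold change of 0.83 (SE 0.120, 95% interval 0.57 to 1.09, edgeR adjusted p = 2.34e-04). The call held under all 13 alternatives, with log2 fold changes between 0.73 and 0.90, and no exon of another gene overlaps TGFA in GENCODE 29.

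EREG, which encodes epiregulin, was at 232.8, 125.3 and 141.5 CPM in the control libraries and 113.1, 136.4 and 144.6 CPM in the RNF6 siRNA libraries. Control replicate 1 was far above the other 5 libraries, which overlapped. The log2 fold change of -0.34 (SE 0.188, 95% interval -0.75 to 0.07, edgeR adjusted p = 0.185) was -0.03 without control replicate 1 (adjusted p = 0.848) and -0.51 without control replicate 2 (adjusted p = 0.0261). HBEGF, the heparin-binding ligand on chromosome 5, was at 23.5, 24.6 and 22.7 CPM in the control libraries and 23.0, 21.1 and 18.0 CPM in the RNF6 siRNA libraries. RNF6 siRNA replicate 1 lay within the control range and the other 2 below it (log2 fold change -0.19, SE 0.128, 95% interval -0.47 to 0.09, edgeR adjusted p = 0.275).

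AREG, which encodes amphiregulin, had the fewest reads of the set, 49 to 108 per library. It was at 6.74, 8.17 and 7.47 CPM in the control libraries and 9.93, 11.5 and 5.47 CPM in the RNF6 siRNA libraries. RNF6 siRNA replicates 1 and 2 lay above all controls and replicate 3 below them, and the log2 fold change of 0.23 (SE 0.236, edgeR adjusted p = 0.495) had the widest interval of the set, -0.28 to 0.73. Without RNF6 siRNA replicate 3 it was 0.50 (adjusted p = 0.0719), and without RNF6 siRNA replicate 2 it was 0.04 (adjusted p = 0.930). The files also list AREGB, a near-identical copy in the older annotation, with 8 to 27 reads per library. Reads that match both copies are set aside in this kind of counting, so the level of AREG is uncertain and may be understated. AREG and EREG are neighbours on chromosome 4 in the order EPGN, EREG, AREG and BTC, all of which encode ligands of the family, and none of the 4 was called (EPGN had too few reads to be tested).

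ERRFI1, also known as MIG6, encodes a cytoplasmic protein that binds the kinase domain of ERBB receptors and inhibits it. It was at 997.7, 576.6 and 602.0 CPM in the control libraries and 918.7, 1103 and 844.5 CPM in the RNF6 siRNA libraries. Control replicate 1 lay within the range of the RNF6 siRNA libraries, and the other 2 controls lay below all of them. The log2 fold change of 0.40 (SE 0.180, 95% interval 0.01 to 0.79, edgeR unadjusted p = 0.0462) did not pass after adjustment (adjusted p = 0.108). Without control replicate 1 it was 0.69 and passed (adjusted p = 2.45e-05), and under the other alternatives that leave out 1 library it ran from 0.25 to 0.47. Exons of another gene overlap 3.70% of its exon bases.

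**Figure D2:**
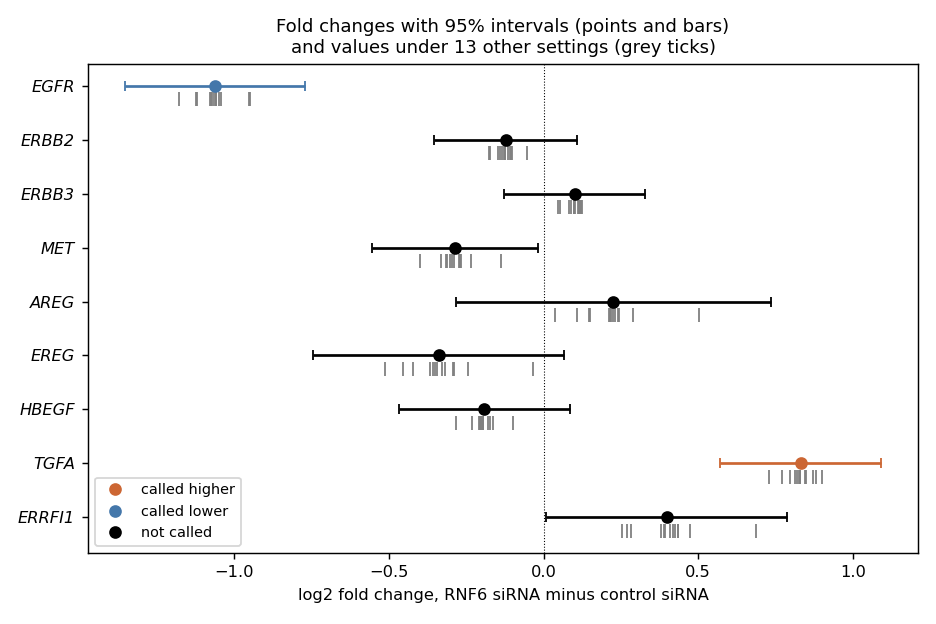
Log2 fold change (RNF6 siRNA minus control siRNA, horizontal axis) of each transcript with its 95% interval, and below each point grey ticks for the values under 13 other settings. EGFR at -1.06 and TGFA at 0.83 are the transcripts called, and the ticks of EREG, MET, ERRFI1 and AREG spread the most.

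Control replicate 1 was the highest control library for EGFR, ERBB3, EREG, TGFA, MET and ERRFI1, and the highest of all 6 libraries for EGFR, EREG and MET. It also held the most reads without an annotated feature among the controls, 9.04% of listed reads against 5.90% and 7.07%, and the RNF6 siRNA libraries held 7.26% to 9.23%. The part of this in the results was not tested. Without this library EGFR was still lower (log2 fold change -0.95, adjusted p = 1.40e-07) and TGFA still higher (0.90, adjusted p = 9.74e-07).

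To compare levels between genes, CPM values were divided by the length of each gene's annotated exons in kilobases. In the control libraries the order of mean levels was ERRFI1 at 173.3 CPM per kilobase, MET at 54.9, EREG at 29.1, EGFR at 17.2, TGFA at 10.2, HBEGF at 7.83, ERBB2 at 7.25, ERBB3 at 4.99 and AREG at 4.53. The ranges of ERBB3 and AREG overlapped in the control libraries, and those of HBEGF and ERBB2 were separated by less than their SD. In the RNF6 siRNA libraries TGFA, at 18.2 ± 2.18 CPM per kilobase, stood next to EREG at 23.0 ± 2.86, with overlapping ranges. There EGFR, at 8.26 ± 1.13, was close to HBEGF at 6.86 ± 0.830 and ERBB2 at 6.65 ± 0.611, and the ranges of the 3 overlapped. With the longest coding transcript as the length, ERBB2 stood above TGFA and HBEGF in the control libraries, so its place in the order depends on the length used.

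EGFR made up 62.7%, 53.5% and 58.5% of the summed level per kilobase of the 3 ERBB receptors in control replicates 1, 2 and 3, and 36.1%, 44.6% and 41.4% in the RNF6 siRNA replicates. The groups did not overlap, and the sum of the receptors was 29.5 ± 2.48 CPM per kilobase with control siRNA and 20.3 ± 1.09 in RNF6 siRNA libraries (SD, n = 3). With the longest coding transcript as the length, the EGFR share was 48.4% ± 4.82 and 31.9% ± 4.01. TGFA made up 17.7%, 21.2% and 21.1% of the 4 ligands in control replicates 1, 2 and 3, and 33.4%, 35.3% and 33.0% in the RNF6 siRNA replicates. The summed level of the ligands was 63.9, 44.4 and 46.7 CPM per kilobase in control replicates 1, 2 and 3. In RNF6 siRNA replicates 1, 2 and 3 it was 50.2, 58.5 and 51.6. Control replicate 1 lay above all RNF6 siRNA libraries, and control replicates 2 and 3 lay below them. The means were 51.7 ± 10.7 with control siRNA and 53.4 ± 4.44 with RNF6 siRNA, a difference within the spread of replicates. These shares describe transcripts, follow from the values above and were not tested separately, and protein and phosphorylation were not measured.

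**Figure D3:**
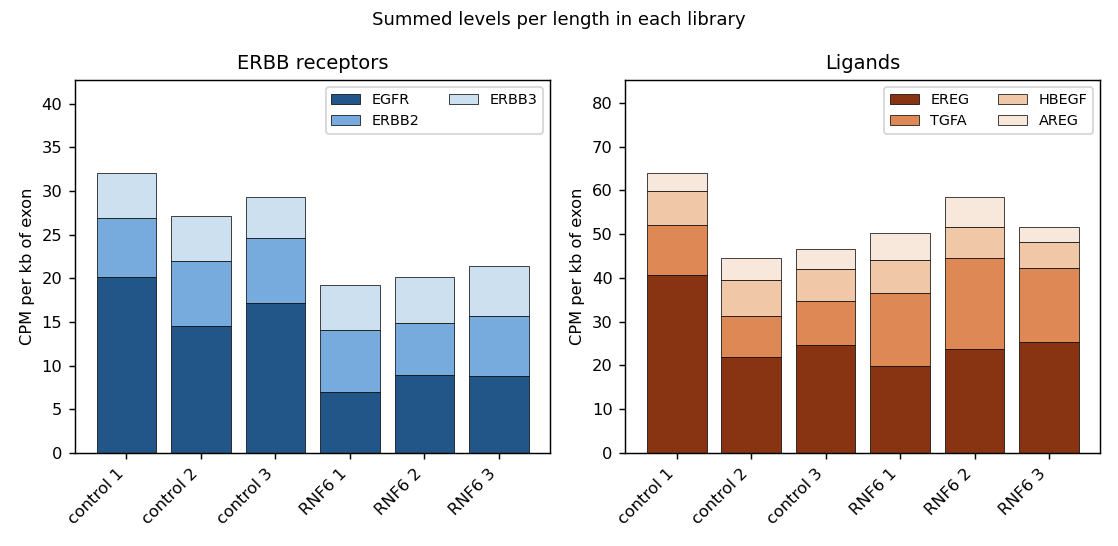
Levels in CPM per kilobase of annotated exon (linear axis from 0), stacked for the 3 ERBB receptors on the left and the 4 ligands on the right, in each of 6 libraries. The EGFR segment is shorter in all RNF6 siRNA libraries than in all controls, and the TGFA segment is taller.

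Transcripts with the pattern closest to EGFR over the 6 libraries, by the root-mean-square difference of mean-centred log2 CPM among 9242 protein-coding genes, were BTBD7 (0.0366 log2 units) and GMFB (0.0431). BTBD7 was at 64.4 ± 10.1 CPM with control siRNA and 31.2 ± 4.08 CPM with RNF6 siRNA, and GMFB at 172.9 ± 30.4 and 80.5 ± 11.3 CPM. For TGFA they were CLDND1 (0.0489), at 254.9 ± 28.5 and 426.9 ± 56.4 CPM, and PIGP (0.0526), at 8.44 ± 0.560 and 15.9 ± 1.71 CPM. This likeness is a description over 6 libraries that share the group difference.

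The other transcripts listed here with the ERBB family, which include TDGF1 and the AREG copy AREGB, were scarce. Of 10 listed genes, 5 had enough reads to be tested, AREGB among them. Of these, 0 passed in either direction by edgeR, DESeq2 or limma-voom, and 0 had an unadjusted edgeR p below 0.05. By edgeR, 32.7% of all tested genes passed. NRG4, a neuregulin, was the most abundant, at 8.65 ± 0.819 CPM with control siRNA and 8.07 ± 0.407 CPM with RNF6 siRNA, with 38.1% of its exon bases under FBXO22. The EGFR ligand genes BTC and EGF were at 2.40 ± 0.744 and 2.05 ± 0.704 CPM with control siRNA and 3.15 ± 0.382 and 2.36 ± 0.403 CPM with RNF6 siRNA, and the neuregulin gene NRG2 at 1.68 ± 0.448 and 1.73 ± 0.486 CPM. ERBB4, the fourth receptor of the family, had 0 to 9 reads per library and was not tested.

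For MET, the ligand gene HGF had at most 1 read per library. Of 10 tested genes for MET's relatives, co-receptors and ligand processing, 2 rose and 1 fell by edgeR. Across all tested genes, 16.6% rose and 16.1% fell. DESeq2 called 1 gene of the list higher and 1 lower, and limma-voom 2 higher and 1 lower. ST14, which encodes the protease matriptase that can activate the HGF precursor, fell 1.48-fold, from 202.8 ± 26.4 to 136.5 ± 17.0 CPM (edgeR adjusted p = 0.00333). PLXNB1, a plexin that associates with MET, rose 1.43-fold, from 45.2 ± 2.61 to 64.6 ± 7.55 CPM (adjusted p = 0.00447). HGFAC, another HGF-activating protease, rose from 0.493 ± 0.201 to 1.51 ± 0.191 CPM (adjusted p = 0.0114), a low level whose call ended without RNF6 siRNA replicate 3 (0.0545) and with DESeq2 (0.0735). Its adjusted p lay between 0.00894 and 0.0735 in all alternatives run. CD44, the most abundant of the list and a MET co-receptor in its longer isoforms, was at 456.5 ± 39.4 and 400.1 ± 10.3 CPM (adjusted p = 0.144). Without control replicate 1, or without RNF6 siRNA replicate 1, 2 genes of the list fell.

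Among genes that process and shed the ligands, 1 of 11 tested rose and 3 fell, with a median log2 fold change of -0.19. Over all tested genes, 16.6% rose, 16.1% fell and the median was 0.01. FURIN, the convertase that matures the shedding proteases, fell 1.97-fold, from 109.4, 134.1 and 143.0 CPM in the control libraries to 64.9, 61.0 and 70.2 CPM in the RNF6 siRNA libraries (edgeR adjusted p = 6.44e-05). FRMD8, a partner of the iRhom proteins that carry ADAM17 to the cell surface, fell 1.53-fold (adjusted p = 5.075e-04). ADAM10, a sheddase, fell 1.48-fold, from 188.2 ± 32.7 to 127.4 ± 13.5 CPM (adjusted p = 0.00532). ADAM15, a metalloprotease, rose 2.08-fold, from 80.4 ± 6.63 to 167.1 ± 23.4 CPM (adjusted p = 3.79e-05). ADAM17, the main sheddase of TGFA, AREG, EREG and HBEGF, named here after its values were seen, was at 72.9 ± 11.2 and 72.2 ± 5.68 CPM (adjusted p = 0.947). ADAM9, the most abundant of the list, was at 325.1 ± 65.4 and 269.9 ± 31.7 CPM (adjusted p = 0.156) and passed as lower without control replicate 2 (adjusted p = 0.0107).

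Of 19 tested receptor inhibitors and degradation factors, 3 were lower and 0 higher by edgeR, beside 16.1% of all tested genes lower and 16.6% higher. At an unadjusted edgeR p below 0.05 1 gene was higher. DESeq2 called 0 higher and 2 lower, and limma-voom 0 higher and 3 lower. The lower genes were the phosphatase gene PTPN1 (1.29-fold, edgeR adjusted p = 0.00847), the CBL adaptor gene SH3KBP1 (1.30-fold, 0.00937) and LRIG3 (1.32-fold, 0.0366), a member of the LRIG family of membrane proteins. The LRIG3 call held without control replicate 2 (adjusted p = 0.0273) and ended without each of the other 5 libraries (0.0763 to 0.107), as it did with DESeq2 (0.0888) and with no filter on low counts (0.0576), with a range of 0.0273 to 0.113 across the alternatives. PTPN1 lost its call without control replicate 3 (0.0554, range 0.00134 to 0.0685), and the SH3KBP1 call without RNF6 siRNA replicate 3 (0.0548, range 0.00206 to 0.0704), so that 1 gene of the list was lower without either library. Without control replicate 1, 4 genes of the list were higher, and without RNF6 siRNA replicate 1, 1 was.

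Of 24 tested endocytosis and recycling genes, 3 fell and 3 rose, beside 16.1% and 16.6% of all tested genes. EPS15L1, an EGFR endocytosis adaptor, fell 2.16-fold, from 47.9 ± 3.57 to 22.1 ± 2.14 CPM (edgeR adjusted p = 2.62e-05), and RAB7A, the GTPase of late endosomes, fell 1.47-fold (adjusted p = 9.575e-04). RAB11FIP1, a recycling endosome adaptor, rose 1.83-fold, from 83.7 ± 3.43 to 153.5 ± 3.78 CPM (adjusted p = 2.645e-05), with 24.8% of its exon bases under another gene. EPN1, an endocytic adaptor, rose 1.61-fold (adjusted p = 0.00149). CLTC, the clathrin heavy chain gene and the most abundant of the list, was at 873.1 ± 63.4 and 768.8 ± 21.3 CPM (adjusted p = 0.154). In the fit without control replicate 1, 6 of these genes rose.

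Of 26 tested adaptors that dock on activated receptors, 4 rose and 3 fell by edgeR, beside 16.6% and 16.1% of all tested genes. DESeq2 called 2 higher and 2 lower, and limma-voom 3 higher and 3 lower. PTPN11, which encodes SHP-2, rose 2.07-fold (edgeR adjusted p = 5.57e-05) and had the largest difference of the list by p-value, followed by EPS8L2 (1.37-fold higher, 0.01015), RASA1, a GTPase-activating protein of RAS (1.39-fold lower, 0.0144), and NCK1 (1.38-fold higher, 0.0280). For RASA1, leaving out control replicate 3 (0.0657) or RNF6 siRNA replicate 1 (0.0565) ended the call, and all alternatives lay between 0.00289 and 0.0705. Exons of CCNH overlap 14.7% of the exon bases of RASA1. For NCK1, leaving out control replicate 2 (0.124), control replicate 3 (0.0765), RNF6 siRNA replicate 2 (0.0770) or the third RNF6 siRNA library (0.0860) ended the call, as did DESeq2 (0.0542), and all alternatives lay between 0.00310 and 0.124. In each of the 4 fits that left out one of the libraries just named for NCK1, 2 genes of the list rose. No gene of it fell in the edgeR fits without control replicate 3 or the first RNF6 siRNA library, and 1 fell without RNF6 siRNA replicate 3.

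Among 23 other tested receptor tyrosine kinases, 6 rose and 2 fell by edgeR, beside 16.6% and 16.1% of all tested genes. DESeq2 called 4 higher and 2 lower, and limma-voom 6 higher and 2 lower. FGFR3, a fibroblast growth factor receptor, rose 2.48-fold, from 36.3, 42.2 and 44.8 CPM in the control libraries to 101.8, 95.9 and 108.5 CPM in the RNF6 siRNA libraries (edgeR adjusted p = 4.89e-06). EPHA2, an ephrin receptor and the most abundant of the list, fell 1.72-fold, from 418.8 ± 40.0 to 243.7 ± 18.1 CPM (adjusted p = 1.23e-04). The insulin receptor gene INSR rose 1.38-fold (adjusted p = 0.003275) and TYRO3, a receptor of the AXL family, 1.41-fold (adjusted p = 0.00392). Without control replicate 1, 4 genes of the list fell, and 1 fell in each fit that left out control replicate 3, or the first or the third RNF6 siRNA library.

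Transcripts that respond to ERK, the kinase downstream of these receptors, fell for 11 of 18 tested genes and rose for 0, beside 16.1% of all tested genes lower and 16.6% higher. The median log2 fold change of the list was -0.40, beside 0.01 over all tested genes. The list was chosen with earlier results of these data known, so its count is a description and not an independent test. The ERK phosphatase gene DUSP6 fell 2.43-fold, from 497.8 ± 31.6 to 204.8 ± 26.9 CPM (edgeR adjusted p = 4.89e-06), with 40.5% of its exon bases under another gene. SPRED2, an inhibitor of RAS-ERK signalling, fell 1.82-fold, the cyclin D1 gene CCND1 1.81-fold and the ERK phosphatase gene DUSP4 1.79-fold, with adjusted p of 4.41e-05, 5.70e-05 and 6.00e-05. Exons of LTO1 overlap 10.3% of the exon bases of CCND1. Leaving out 1 library gave 8 to 11 genes lower. DESeq2 and limma-voom also called 11 lower and 0 higher, and 0 were higher at an unadjusted edgeR p below 0.05.

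**Figure D4:**
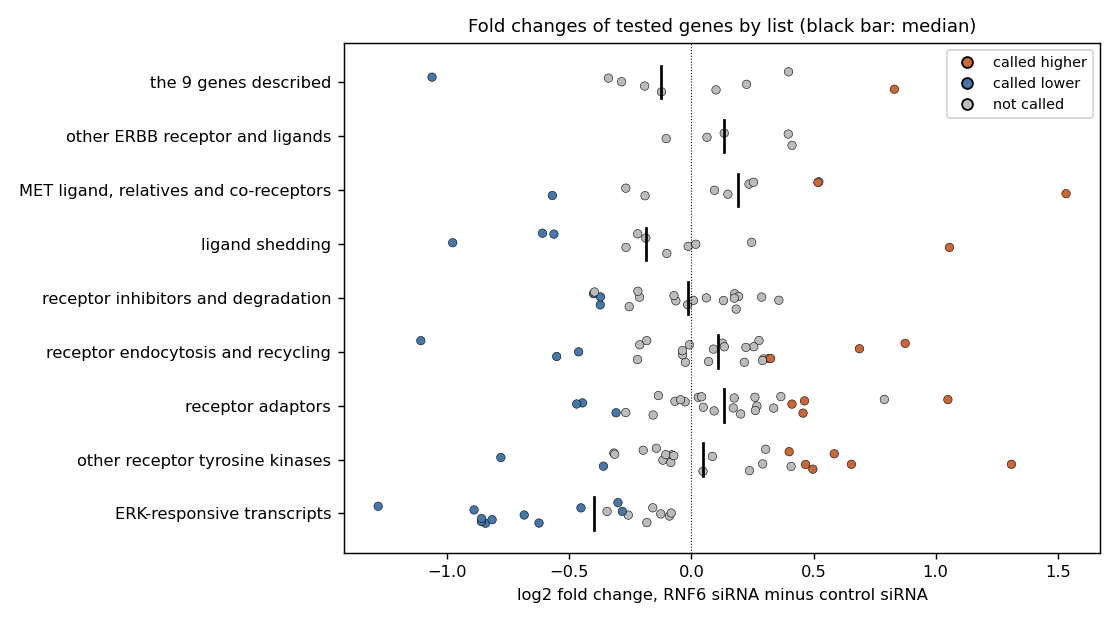
Log2 fold change (RNF6 siRNA minus control siRNA, horizontal axis) of each tested gene, by list, coloured by call, with the median of each list as a black bar. Among the pathway lists plotted, the ERK-responsive transcripts have the lowest median, -0.40, and the 9 genes described lie on both sides of 0. The lists were chosen with earlier results of these data known.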

How the data were processed

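RNA of cells labelled HT29 was made into 6 TruSeq libraries, per the labels' protocols. The authors deposited whole-number read counts per gene symbol, not normalised, 1 table per library. Per the submitters' processing notes, TopHat2 2.0.11 and HTSeq were used with build hg19 (GRCh37). The sources used here name no strand setting, annotation release or filter. It is therefore not known how far reads of overlapping or antisense genes were counted, left out or kept apart. Reads marked ambiguous between genes made up 8.27% to 9.11% of listed reads per library and are not in the gene counts. The summary rows of HTSeq (no feature, ambiguous, not unique) held 27.3% to 29.4% of listed reads and were left out.

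Counts were tested in R 4.3.3 with edgeR 4.0.16 (filterByExpr with a minimum count of 10, TMM factors 0.985 to 1.02, robust quasi-likelihood fit on group, two-sided), with Benjamini-Hochberg adjustment over 14685 genes and calls at an adjusted p below 0.05. Fold changes are RNF6 siRNA minus control (prior count 0.125), the SE is the fold change over the root of F, and intervals use the fit's t distribution. CPM values use gene reads and TMM, and at 6808771 to 11071456 gene reads per library counting error matters most for genes of few reads. Alternatives were RLE and upper-quartile scaling, no filter, a minimum count of 50, DESeq2 1.42.0, limma-voom (limma 3.58.1), a replicate block and each library left out. The analysis was tested on simulated data.

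The 9 genes and the lists were chosen with earlier results of these data known. Named beyond the 9 and RNF6 are up to 4 called genes of smallest p and the most abundant gene per list, lists of 5 or fewer tested genes whole, the most abundant cell type markers, and 2 genes of like pattern (mean of at least 10 CPM) per called gene. Lengths and exon overlaps come from GENCODE 29 (GRCh38) and promoters from RefSeq, so no coordinate refers to the counts.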

Additional observations from a re-analysis of the deposited data

How the results depend on the processing

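The calls of EGFR and TGFA and the directions of all 9 transcripts were the same under all 13 alternatives run. Of the 9, leaving out 1 library gave 1 to 2 called higher and 1 to 3 called lower, and without the filter on low counts 2 were higher and 2 lower, with EREG and ERRFI1 added (adjusted p = 0.0215 and 0.00483). Across all genes, leaving out 1 library gave 1514 to 2910 higher and 1478 to 2967 lower, against 2442 and 2364. The lowest counts came without control replicate 3 (higher) and without RNF6 siRNA replicate 3 (lower), and the highest without control replicate 1. With the replicate number as a block, 1421 were higher and 1321 lower. The labels do not say that the numbers pair the samples, so they were not taken as pairs. Same-numbered libraries of the groups did not deviate together (r = -0.73, -0.50 and 0.12 over genes). Differently numbered libraries ran from -0.41 to 0.76, the highest for control replicate 2 with RNF6 siRNA replicate 1. What these libraries share was not tested. With the block the calls of EGFR (adjusted p = 0.00386) and TGFA (0.00704) held. Those of PTPN1 (0.0685), SH3KBP1 (0.0704), LRIG3 (0.113), EPS8L2 (0.0667), RASA1 (0.0705) and NCK1 (0.0842) did not, and in the block fit 0 receptor inhibitors and 0 adaptors were lower, 1 adaptor and 3 other receptor tyrosine kinases were higher, and 1 of the latter was lower. With the longest coding transcript as length, ERBB2 ranked 5, TGFA 6 and HBEGF 7 in the control libraries. Fold changes of uncalled low genes turned sign when 1 library was left out, over -0.10 to 0.27 for EGF, -0.10 to 0.26 for NRG2 and -0.24 to 0.78 for AREGB. Depth limits AREG and the genes below about 10 CPM most.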
